A study of Mus musculus with 24 samples.

Results

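The line by assay interaction asks whether tandem chromatin immunoprecipitation changed the H3K4me3 signal of a promoter differently in 2 mouse lines. It was examined with the 12 H3K4me3 libraries among the 24 libraries of the series, all of which carry read counts on 1 list of 17993 regions. Of these regions, 13404 contained the annotated 5′ end of a transcript (a transcription start site, TSS) in the mouse genome build mm9, and the text below is about these TSS regions. For each region, the difference between tChIP-Seq (tChIP) and ordinary H3K4me3 ChIP-Seq (single ChIP) was taken in each line on the log2 scale, which is called the assay effect here. The interaction is the *Camk2a* assay effect minus the Rosa assay effect, so that a change brought by the FLAG step equally in both lines cancels. The same number is the *Camk2a* minus Rosa difference in tChIP less that difference in single ChIP.

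All mice were C57BL/6, and the tissue was the adult cerebral cortex. Both lines carried a cassette for FLAG-tagged histone H2B behind the CAG promoter at *Rosa26*, on 1 of the 2 alleles. In the Rosa line (Rosa CAG-H2B-FLAG), the floxed stop had been removed by Vasa-Cre, so that the tagged histone was made constitutively in all cell types and without a drug. In the *Camk2a* line (*Rosa26* CAG-floxed-pA-H2B-FLAG/ CaMKCreERT2), Cre depended on tamoxifen and on the promoter of *Camk2a*, which is active in excitatory neurons. These double-heterozygous males were 8 weeks old when they first received tamoxifen, 1 mg a day for 5 days, and tissue was taken a month later. The age and sex of the Rosa mice are not given in the sources used here. Y-linked regions had signal in the libraries of both lines, with values given at the end. Tamoxifen and the CreERT2 transgene were thus given to 1 line only and cannot be told apart from the line. A chromatin lysate was made from the tissue of 2 animals. Single ChIP used anti-H3K4me3 antibody, and tChIP used anti-FLAG antibody followed by anti-H3K4me3 antibody. There were 3 libraries in each of the 4 groups, and p-values measure the spread among these libraries. In the Rosa line, the only line whose blot the study describes, the tagged histone was also seen in a longer form.

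H3K4me3, trimethylation of lysine 4 of histone H3, is deposited around the start sites of active and poised genes, and it is wide at many genes that define a cell type. The cortex mixes excitatory neurons, interneurons, astrocytes, oligodendrocytes, microglia and the cells of vessels and meninges, and an ordinary ChIP averages over them. A tagged histone confined to 1 cell type lets a first immunoprecipitation select the chromatin of those cells before the mark is read. In such pooled tissue, fewer nuclei of a type in the selected chromatin and less mark per nucleus cannot be told apart.

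Counts per library totalled 6316125 to 8644574 in Rosa single ChIP, 1457261 to 1828371 in Rosa tChIP, 4063200 to 4233144 in *Camk2a* single ChIP and 2709729 to 3049130 in *Camk2a* tChIP, so that the Rosa tChIP values are the least precise. Values per region are given as CPM, counts scaled to the normalised size of the library, and differences were tested with edgeR and called at an adjusted p under 0.01. The cortical markers *Neurod6* and *Emx1* had 43.3 to 127 and 86.6 to 246 CPM over the 12 libraries, against 18.4 to 55.8 CPM for *En2* and 1.16 to 13.0 CPM for *Pax2*, which mark midbrain and hindbrain.

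The interaction was above 0 in 2177 of the 13404 TSS regions (16.2%) and below 0 in 1778 (13.3%). Scaling by library totals alone, which shifted the median of all regions by -0.10, gave 1669 above and 2269 below, and the 1778 regions below 0 were all among the latter. The 2 directions differed in size. Above 0, the median interaction was 0.69, 584 regions reached 1 and the largest was 2.11, whereas below 0 the median was -1.06, 953 regions reached a size of 1, 298 reached 2 and 48 reached 3, with an extreme of 3.99 in size. Among the regions furthest above 0 were promoters of *Htr1a*, *Slc17a7*, *Cck*, *Slit1* and *Camk2a*, and among those furthest below 0 were promoters of *S100a16*, *Tmem176b*, *Timp4*, *Cyba* and *Serpinh1*.

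The assay effects show which groups produced these interactions. Taken alone, the *Camk2a* assay effect was called above 0 in 21.8% of the TSS regions and below 0 in 27.5%, and the Rosa assay effect in 19.8% and 29.7%. Among the 2177 regions with an interaction above 0, 812 (37.3%) had a called rise from single ChIP to tChIP in *Camk2a* together with a called fall in Rosa. A further 610 (28.0%) had the rise in *Camk2a* alone, and 591 (27.1%) had the fall in Rosa alone. These shares depend on how an assay effect is counted. With assay effects of at least 0.5 in size, opposite changes made up 201 regions, the fall in Rosa alone 582 and the rise in *Camk2a* alone 448, and with scaling by library totals they made up 656, 323 and 622. In 114 regions of the original count both lines moved in 1 direction by unequal amounts, and in 50 neither assay effect was called. Among the 1778 regions below 0, the most frequent form was a rise in Rosa tChIP alone with 647 (36.4%), followed by opposite changes with 557 (31.3%) and a fall in *Camk2a* tChIP alone with 423 (23.8%). With assay effects of at least 0.5 in size, the counts below 0 were 560, 411 and 383. Opposite changes were then a larger share below 0 than above 0. By calls, the larger interactions were mostly two-sided above 0, where 435 of the 584 regions of size 1 or more (74.5%) had opposite changes. Below 0 these were 459 of 953 (48.2%). Calls also depend on counts, and the median of the mean counts per region was 350 above and 110 below 0. The median region above 0 took 44.3% of its interaction from the *Camk2a* side (quartiles 19.3% and 66.8%), and the median region below 0 took 47.9% (14.1% and 73.9%). Both tChIP groups thus contributed, in a proportion that varied widely from region to region.

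**Figure D1:**
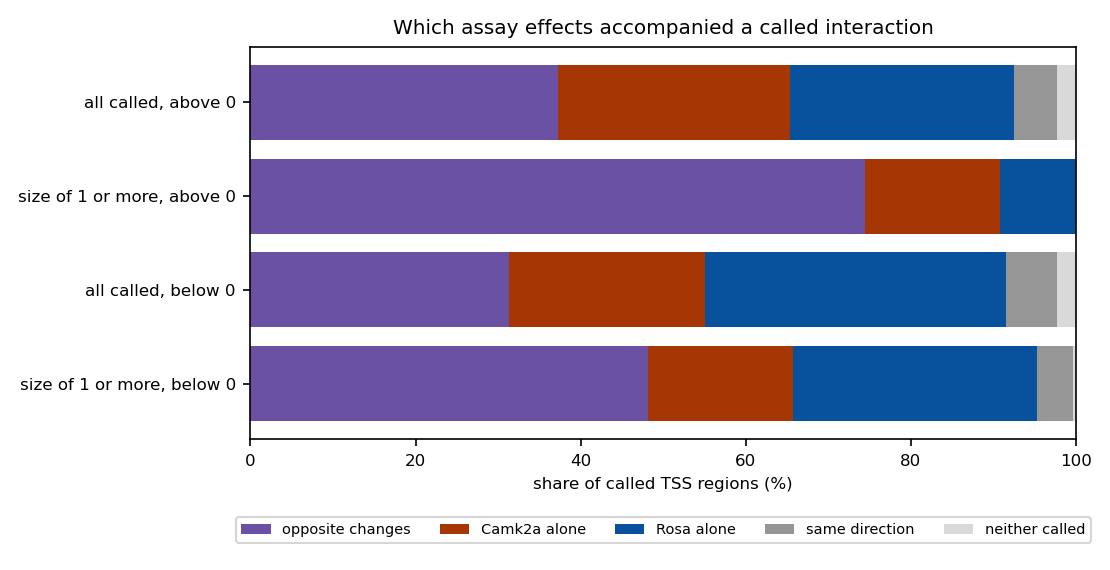
Stacked bars give, on the horizontal axis, the share (%) of TSS regions with a called interaction that had each combination of called assay effects, in rows for direction and for all called regions or those of size 1 or more on the log2 scale. Opposite changes, a rise in 1 line and a fall in the other, made up 37.3% of all regions above 0 and 74.5% of those of size 1 or more, against 31.3% and 48.2% below 0.

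The lines were also compared in single ChIP alone. The *Camk2a* minus Rosa difference in single ChIP was called above 0 in 0.634% of the TSS regions and below 0 in 1.19%. It was called in 97 of the 3955 regions with a called interaction, 53 of them above and 44 below 0, a count that was 20 with DESeq2, 360 at an adjusted p under 0.05 and 35 to 54 without any 1 of 5 single ChIP libraries, namely the 3 of *Camk2a* and replicates 2 and 3 of Rosa. The median difference in single ChIP was -0.02 in regions above 0 and 0.07 in regions below 0, and it was smaller than 0.25 in size in 97.1% and 80.5% of them. Among the 9449 TSS regions whose interaction was not called, 2538 (26.9%) still had both assay effects called in 1 direction, with 905 rising and 1633 falling in both lines. At these 2538 regions no difference in assay effect between the lines was detected, which does not show that the effects were equal. None of the 9449 had opposite changes, which the definition makes nearly certain, since opposite assay effects add up in the interaction.

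**Figure D2:**
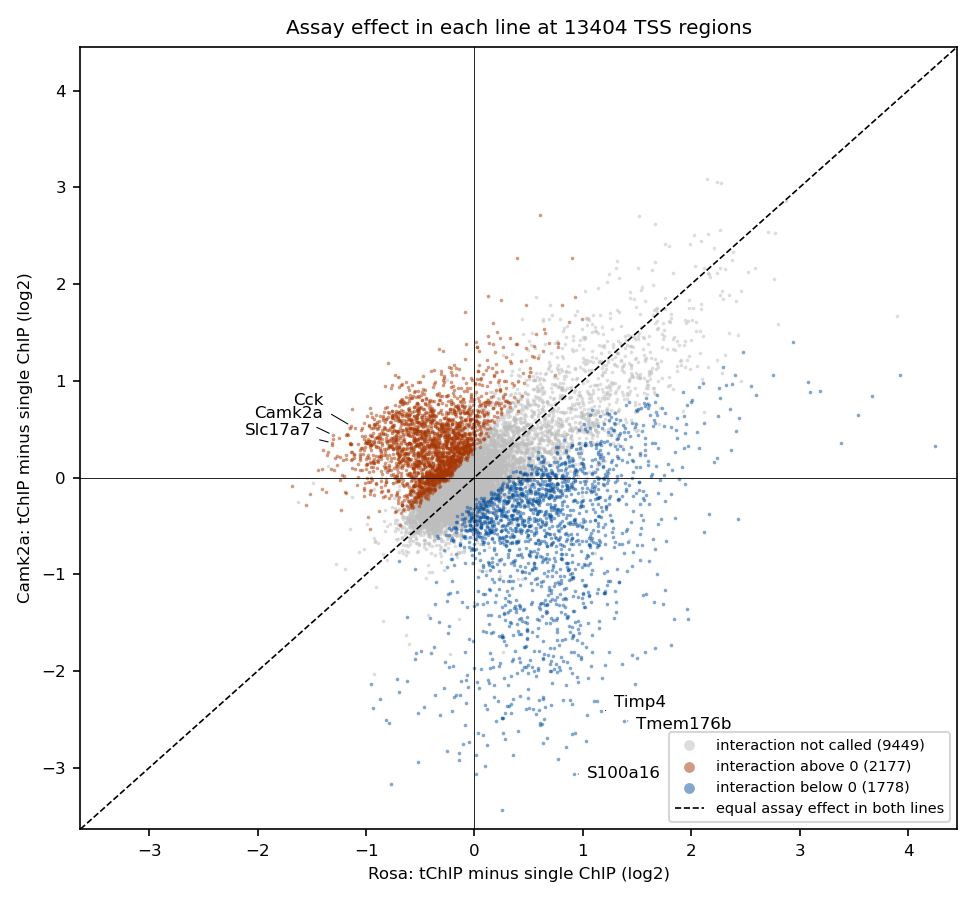
Each point is 1 of the 13404 TSS regions, with the Rosa assay effect (tChIP minus single ChIP, log2) on the horizontal axis and the Camk2a assay effect (log2) on the vertical axis. On the dashed diagonal the interaction is 0; the 2177 regions called above 0 lie to its upper left and reach 2.11, and the 1778 called below 0 lie to its lower right and reach -3.99.

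The 15 regions furthest above 0 that also met a minimum mean count of 20 and had every tChIP minus single difference of the *Camk2a* line above every one of the Rosa line spanned interactions from 1.66 to 1.98. They were *1700001L19Rik*, *Tceal7*, *Serpinb8*, *Ablim1*, *Htr1a*, *Camk2a*, *Cpne4*, *Ipcef1*, *Efcab6*, *Mir1983*, *Slit1*, *Slc17a7*, *Cck*, *Hecw1* and *3110035E14Rik*. In 14 of them both assay effects were called in opposite directions, and in *Mir1983* only the fall in Rosa was. In 13 of the 15, the 3 *Camk2a* tChIP libraries were the highest and the 3 Rosa tChIP libraries the lowest of all 12, an order found in 6.89% of all TSS regions, and the exceptions were *Serpinb8* and *Mir1983*. Since these regions were chosen by the size of the interaction and the separation of the lines, which favours this order, their values are a description. The *Camk2a* assay effects of the 15 ranged from 0.28 to 1.18, and the Rosa assay effects from -1.40 to -0.71, so that the fall in Rosa was the larger component at the median, -1.13 against 0.71.

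Their promoters from 250 bases before to 50 bases after the annotated start are shown for the first 3 in this direction, to let the sequences behind the largest interactions be compared with those of the other direction. They were read from the mm9 genome at chr13:68736066-68736365 on the plus strand for *1700001L19Rik*, chrX:132749068-132749367 on the plus strand for *Tceal7*, chr1:109486333-109486632 on the plus strand for *Serpinb8*. Capitals mark matches, on either strand, to any of the motifs named here. Both E-box forms searched are bound by basic helix-loop-helix factors and were CAGATG and, as the second form, CAGCTG. The cAMP response element was searched as TGACGTCA. The GC box bound by Sp1 was searched as GGGCGG. The TATA box was searched as TATAAA. The motif of ETS factors was searched as CCGGAAG, and that of PU.1 as GAGGAAGT. None of these contains another.
1700001L19Rik: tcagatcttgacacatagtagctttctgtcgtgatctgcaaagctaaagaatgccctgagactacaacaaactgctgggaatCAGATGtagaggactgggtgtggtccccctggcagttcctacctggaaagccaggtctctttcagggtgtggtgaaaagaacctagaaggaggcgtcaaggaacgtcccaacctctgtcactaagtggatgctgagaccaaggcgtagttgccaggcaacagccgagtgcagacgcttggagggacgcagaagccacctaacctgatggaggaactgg
Tceal7: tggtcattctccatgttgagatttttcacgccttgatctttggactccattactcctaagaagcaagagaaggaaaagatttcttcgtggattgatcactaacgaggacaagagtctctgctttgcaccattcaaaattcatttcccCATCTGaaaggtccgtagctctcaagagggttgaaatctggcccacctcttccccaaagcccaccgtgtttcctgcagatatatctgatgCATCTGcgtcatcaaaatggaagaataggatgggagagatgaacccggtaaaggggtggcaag
Serpinb8: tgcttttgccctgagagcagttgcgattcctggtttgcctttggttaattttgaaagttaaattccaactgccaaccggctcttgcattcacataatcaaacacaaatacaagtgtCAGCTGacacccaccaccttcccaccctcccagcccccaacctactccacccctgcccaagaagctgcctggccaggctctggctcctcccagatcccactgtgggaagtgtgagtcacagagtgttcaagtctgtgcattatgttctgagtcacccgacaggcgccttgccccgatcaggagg

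*1700001L19Rik* (chr13:68736062-68737254), a gene known by its cDNA clone, had 12.7, 11.1 and 14.4 CPM in Rosa single ChIP, 9.39, 7.16 and 4.59 CPM in Rosa tChIP, 17.2, 11.9 and 12.0 CPM in *Camk2a* single ChIP and 33.1, 28.1 and 32.0 CPM in *Camk2a* tChIP. The 3 *Camk2a* tChIP libraries were well above the rest and the 3 Rosa tChIP libraries below the rest, while both single ChIP groups overlapped. The interaction was 1.98 (SE 0.27, adjusted p = 4.7e-11), of which 1.18 was the rise in *Camk2a*. *Tceal7*, a member of the TCEAL family of transcription elongation factor A-like proteins, had few counts, with 6.37, 6.10 and 7.04 CPM in Rosa single ChIP, 3.13, 2.98 and 2.62 CPM in Rosa tChIP, 6.40, 7.87 and 6.48 CPM in *Camk2a* single ChIP and 13.8, 11.5 and 8.47 CPM in *Camk2a* tChIP. All groups but the single ChIP pair were separated, and the interaction was 1.84 (SE 0.41, adjusted p = 6.54e-05). *Serpinb8*, a serine protease inhibitor, reached 32.8, 28.1 and 36.8 CPM in *Camk2a* tChIP against 9.39, 7.75 and 14.4 CPM in Rosa tChIP, where 1 library overlapped the 14.0, 16.2 and 16.4 CPM of *Camk2a* single ChIP.

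Other regions of the 15 are described here by single examples. *Htr1a* (chr13:106233582-106235570), the serotonin 1A receptor, had 33.3, 36.3 and 36.8 CPM in Rosa single ChIP, 20.3, 22.7 and 22.3 CPM in Rosa tChIP, 33.0, 34.1 and 35.9 CPM in *Camk2a* single ChIP and 65.9, 78.7 and 67.4 CPM in *Camk2a* tChIP. Every *Camk2a* tChIP library was above every other library and the Rosa tChIP group was the lowest, with the single ChIP groups in between and overlapping. Its interaction was 1.75 (SE 0.16, adjusted p = 1.04e-20), with the rise in *Camk2a* (1.04) larger than the fall in Rosa (-0.71). *Cck* (chr9:121400789-121405510), which encodes the neuropeptide cholecystokinin, had 120.1, 119 and 113 CPM in Rosa single ChIP, 51.1, 56.1 and 53.8 CPM in Rosa tChIP, 124, 114 and 115 CPM in *Camk2a* single ChIP and 163, 173 and 173 CPM in *Camk2a* tChIP. The order of groups was the same as at *Htr1a*, but here the fall in Rosa (-1.14) was larger than the rise in *Camk2a* (0.53), and the interaction was 1.67 (SE 0.10, adjusted p = 6.95e-41). *Slit1*, an axon guidance ligand, had 88.9, 97.8 and 86.9 CPM in *Camk2a* tChIP and 25.6, 25.0 and 33.5 CPM in Rosa tChIP, with the 6 single ChIP libraries between 51.9 and 58.6 CPM. Its assay effects were 0.72 and -0.96, respectively. *Cpne4*, a calcium-dependent phospholipid-binding protein, and *Hecw1*, a ubiquitin ligase, had interactions of 1.72 and 1.67. At *Slc17a7*, the vesicular glutamate transporter VGLUT1, the Rosa fall (-1.31) made up most of the interaction of 1.67.

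**Figure D3:**
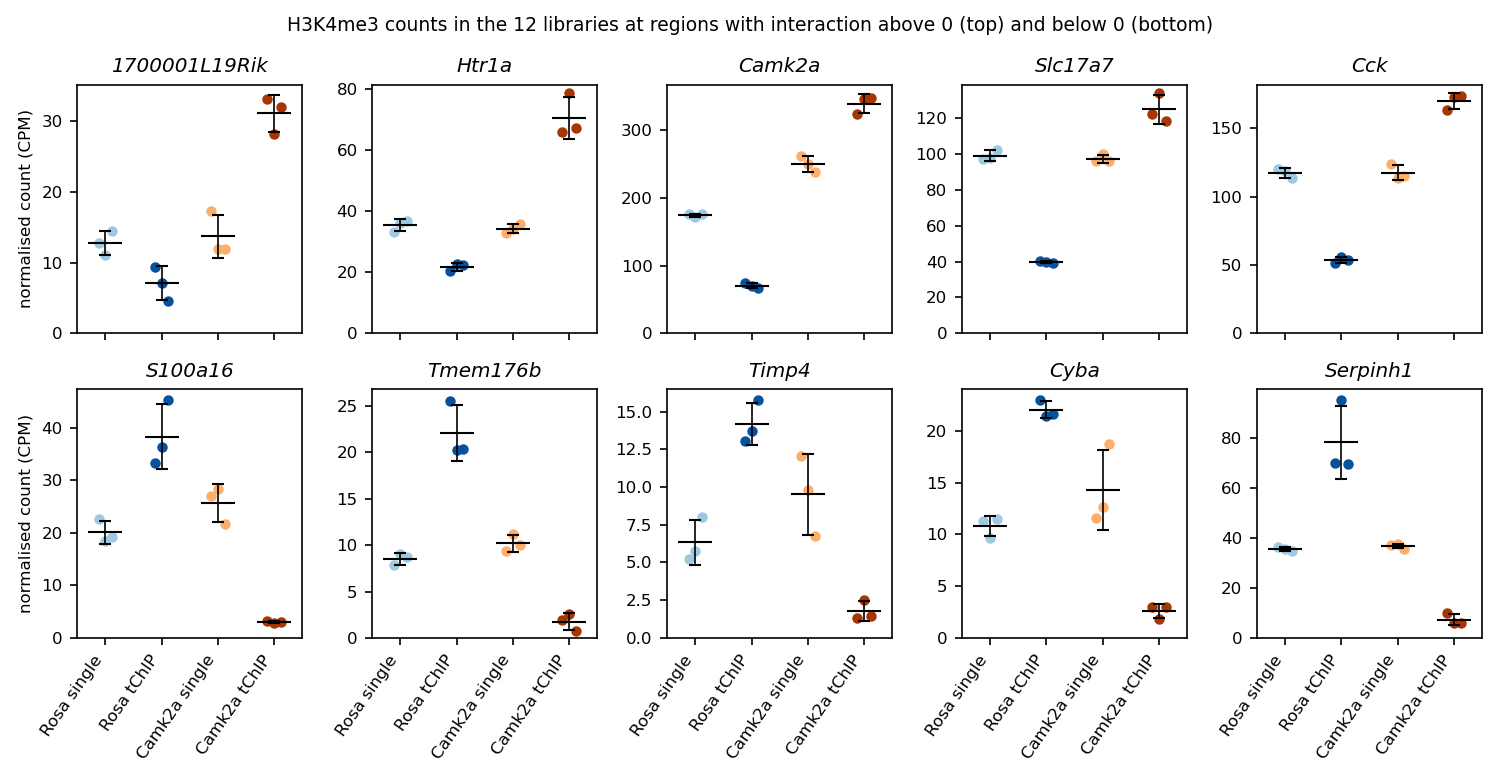
Normalised counts (CPM, vertical axes from 0, a scale for each panel) of the 12 libraries, grouped by line and assay on the horizontal axis, for 5 regions with an interaction above 0 (top) and 5 below 0 (bottom). Points are libraries and bars are the mean ± SD of 3; at Htr1a the Camk2a tChIP libraries reach 78.7 CPM and the Rosa tChIP libraries reach 22.7 CPM at most, and at S100a16 the order is turned, with at most 3.28 CPM in Camk2a tChIP and at least 33.4 CPM in Rosa tChIP.

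The 15 regions furthest below 0 by the same conditions spanned interactions from -3.99 to -3.37. They were *S100a16*, *Tmem176b*, *Gm10837*, *Gpt*, *Acot11*, *Timp4*, *Def6*, *Cyba*, *Serpinh1*, *Dmpk*, *Slc2a10*, *Fam198a*, *Scarf1*, *Serhl* and *Acss3*. Both assay effects were called in opposite directions in 14, and only the fall in *Camk2a* was called at *Scarf1*, a scavenger receptor of endothelial cells. In 13 of the 15, the Rosa tChIP libraries were the 3 highest and the *Camk2a* tChIP libraries the 3 lowest of all 12, which held for 4.41% of all TSS regions, and the exceptions were *Gm10837* and *Scarf1*. The choice of regions by interaction size and separation of the lines favours this order here too, so that the values are a description. The fall in *Camk2a*, from -3.07 to -1.46 with a median of -2.42, was the larger component, and the rise in Rosa ranged from 0.63 to 1.97 with a median of 1.13. In single ChIP, *Camk2a* was above Rosa at all 15, by 0.04 to 0.63 with a median of 0.28, none of which was called, and the interaction subtracts this difference. These regions were short, with a median width of 1031 bp, and had 1.06 to 7.29 CPM in *Camk2a* tChIP as the mean of 3 libraries. The median width of the 15 regions above 0 was 1989 bp.

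The promoters of the first 3 were read from mm9 at chr3:90340926-90341225 on the plus strand for *S100a16*, chr6:48791067-48791366 on the minus strand for *Tmem176b*, chr14:122889558-122889857 on the plus strand for *Gm10837*. The same letters were searched, and no match was found in any of the 3.
S100a16: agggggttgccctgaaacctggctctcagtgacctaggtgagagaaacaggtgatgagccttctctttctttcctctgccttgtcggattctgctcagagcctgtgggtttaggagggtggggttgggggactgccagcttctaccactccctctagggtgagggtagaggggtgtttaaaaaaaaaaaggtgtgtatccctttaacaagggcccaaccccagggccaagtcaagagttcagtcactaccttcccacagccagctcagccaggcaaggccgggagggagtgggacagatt
Tmem176b: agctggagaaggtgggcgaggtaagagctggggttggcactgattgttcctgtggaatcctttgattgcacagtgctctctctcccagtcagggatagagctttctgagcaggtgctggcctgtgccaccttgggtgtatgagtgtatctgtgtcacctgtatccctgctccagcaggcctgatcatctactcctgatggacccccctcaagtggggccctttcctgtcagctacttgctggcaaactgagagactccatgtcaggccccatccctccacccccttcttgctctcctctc
Gm10837: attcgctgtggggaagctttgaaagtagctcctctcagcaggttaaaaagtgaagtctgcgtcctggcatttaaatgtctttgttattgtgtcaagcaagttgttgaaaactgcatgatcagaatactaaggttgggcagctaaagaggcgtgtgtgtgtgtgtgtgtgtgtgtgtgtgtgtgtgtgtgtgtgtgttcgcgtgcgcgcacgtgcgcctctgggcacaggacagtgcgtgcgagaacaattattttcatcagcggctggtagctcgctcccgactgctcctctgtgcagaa

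Over all 13404 promoters of this length, the median GC content was 61.7% and the median number of CpG dinucleotides was 21. Both sets of 15 had fewer CpG, with medians of 8 each and ranges from 4 to 23 above 0 and from 1 to 16 below 0, and their median GC contents were 54.7% and 60.7%. CAGATG was present in 4 of the 15 promoters above 0 and in none of the 15 below 0, against 11.1% of all promoters. CAGCTG was present in 2 and 4 (15.4% of all), GGGCGG in 6 and 8 (66.1% of all), TATAAA in 0 and 1 (6.15%), CCGGAAG in 0 and 1 (15.5%), GAGGAAGT in 1 and 0 (2.54%), and TGACGTCA in neither set (3.34%). These counts are descriptions of 15 chosen promoters, and a match is not a binding site.

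*S100a16* (chr3:90341136-90343102), an EF-hand calcium-binding protein, had 22.6, 18.5 and 19.1 CPM in Rosa single ChIP, 33.4, 36.4 and 45.3 CPM in Rosa tChIP, 27.1, 28.4 and 21.7 CPM in *Camk2a* single ChIP and 3.28, 2.89 and 2.95 CPM in *Camk2a* tChIP. The *Camk2a* tChIP libraries were far below all others and the Rosa tChIP libraries above all others. The interaction was -3.99 (SE 0.27, adjusted p = 2.82e-35), with -3.07 from *Camk2a* and 0.92 from Rosa. *Tmem176b* (chr6:48790126-48791289), a transmembrane protein, had 7.82, 9.09 and 8.67 CPM in Rosa single ChIP, 25.6, 20.3 and 20.3 CPM in Rosa tChIP, 9.35, 11.2 and 9.97 CPM in *Camk2a* single ChIP and 1.97, 2.53 and 0.737 CPM in *Camk2a* tChIP. Here too the tChIP groups lay at the 2 ends, and the rise in Rosa (1.38) was larger than at *S100a16*, with an interaction of -3.89 (SE 0.36, adjusted p = 4.29e-21). *Timp4*, an inhibitor of matrix metalloproteinases, fell from 12.1, 9.78 and 6.73 CPM to 1.31, 2.53 and 1.47 CPM in *Camk2a* and rose from 5.21, 5.74 and 8.02 CPM to 13.0, 13.7 and 15.7 CPM in Rosa. The replicates of *Camk2a* single ChIP were spread widely there, yet none reached either tChIP group.

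Further examples from the 15 follow. *Serpinh1*, the collagen chaperone HSP47, had the most counts, with 69.9, 94.8 and 69.5 CPM in Rosa tChIP and 9.84, 6.13 and 5.89 CPM in *Camk2a* tChIP against 34.8 to 37.5 CPM in the 6 single ChIP libraries. Its interaction was -3.44 (SE 0.19, adjusted p = 8.32e-46). *Cyba*, the p22phox subunit of NADPH oxidase, had 23.0, 21.5 and 21.7 CPM and 2.95, 1.80 and 2.95 CPM in the tChIP groups and an interaction of -3.49. *Gpt*, an alanine aminotransferase, *Acot11*, an acyl-CoA thioesterase, and *Slc2a10*, a glucose transporter, had interactions of -3.68, -3.61 and -3.43. At *Dmpk*, a protein kinase named for myotonic dystrophy, the rise in Rosa (1.97) exceeded the fall in *Camk2a* (-1.46), which was the case at no other of the 15.

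Lists of genes were then described by role, each gene by its TSS region with the most counts. The counts are to be read against 16.2% of all TSS regions above and 13.3% below 0, and the medians against 0.02, -0.07 and -0.10 over all TSS regions for the interaction, the *Camk2a* assay effect and the Rosa assay effect. The lists were written with earlier results of these data known and give no independent support. Where a list had no call in 1 direction by edgeR, the count in that direction was also 0 at an unadjusted p under 0.05 and by DESeq2, except for the housekeeping genes above 0, whose counts are given with them.

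Of 15 measured genes of excitatory cortical neuron identity, out of 17 on the list, 12 were above 0 and none below, with medians of 1.20 for the interaction, 0.38 for the *Camk2a* assay effect and -0.77 for the Rosa assay effect. Their summed level was 1889.8 to 1891 CPM in Rosa single ChIP, 1166 to 1261 CPM in Rosa tChIP, 1925 to 1958 CPM in *Camk2a* single ChIP, 2294 to 2389 CPM in *Camk2a* tChIP. The 3 not called were *Cux1*, *Cux2* and *Rorb*, transcription factors of upper cortical layers, with interactions of 0.01, 0.21 and -0.11. The neurogenic factors *Neurod2* and *Neurod6* had 1.35 and 1.20, and *Neurod1* 1.32 at a region shared with *Cerkl*. *Mef2c*, a transcription factor of neuronal differentiation, by contrast fell in both lines and fell less in *Camk2a*, -0.53 against -0.96.

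Of 21 measured genes of the excitatory synapse and vesicle release, 20 were above 0 and the remaining gene, the vesicle protein *Vamp2*, had 0.15 (adjusted p = 0.13). The medians were 0.95 for the interaction, 0.19 for the *Camk2a* assay effect and -0.78 for the Rosa assay effect, and 8 of the 20 were produced by a fall in Rosa alone. *Snap25*, a SNARE protein of vesicle fusion, was the clearest of these, with 176, 174 and 176 CPM in Rosa single ChIP, 65.7, 65.6 and 61.7 CPM in Rosa tChIP, 177, 177 and 176 CPM in *Camk2a* single ChIP and 182, 190.2 and 189.7 CPM in *Camk2a* tChIP. The Rosa tChIP libraries lay far below the other 9, among which *Camk2a* tChIP was slightly the highest, and the interaction was 1.52 (SE 0.09, adjusted p = 9.98e-42) with a *Camk2a* assay effect of 0.08. *Grin2a*, a subunit of the NMDA receptor, had a two-sided interaction of 1.63 (SE 0.08, adjusted p = 5.52e-52), with 0.45 in *Camk2a* and -1.18 in Rosa.

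All 17 measured voltage-gated ion channel genes were above 0, with medians of 1.13 for the interaction, 0.40 for the *Camk2a* assay effect and -0.69 for the Rosa assay effect. *Kcnv1*, a modifier subunit of potassium channels, had 148, 135 and 131 CPM in Rosa single ChIP, 55.3, 54.9 and 51.2 CPM in Rosa tChIP, 126, 135 and 139 CPM in *Camk2a* single ChIP and 153, 158 and 169 CPM in *Camk2a* tChIP, which put the tChIP groups at the 2 ends, and its interaction was 1.62 (SE 0.10, adjusted p = 4.31e-39). *Kcna2*, a Shaker-type potassium channel, had the smallest value, 0.33 (adjusted p = 6.31e-05), which came from a rise in *Camk2a* (0.29) with -0.04 in Rosa.

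The inhibitory interneuron list differed from these in direction. Of 12 measured genes out of 17, 9 were below 0, none was above 0, and 7 of the 9 were produced by a fall in *Camk2a* alone, with medians of -0.73 for the interaction, -0.41 for the *Camk2a* assay effect and 0.09 for the Rosa assay effect. Their summed level was 446 to 455 CPM in Rosa single ChIP, 477 to 490.2 CPM in Rosa tChIP, 457 to 463 CPM in *Camk2a* single ChIP, 299.9 to 324 CPM in *Camk2a* tChIP. *Dlx2*, a homeobox factor of interneuron development, had 31.0, 27.8 and 32.7 CPM in Rosa single ChIP, 39.7, 29.2 and 36.7 CPM in Rosa tChIP, 34.5, 27.2 and 33.9 CPM in *Camk2a* single ChIP and 14.8, 13.0 and 15.1 CPM in *Camk2a* tChIP. The *Camk2a* tChIP libraries were the lowest and the other 3 groups overlapped, and the interaction of -1.38 (SE 0.20, adjusted p = 2.36e-10) came with a called fall of -1.15 in *Camk2a*, while the Rosa assay effect of 0.23 was not called. At *Lhx6*, a factor of interneurons from the medial ganglionic eminence, the interaction of -1.15 came with a called rise of 1.04 in Rosa, and the *Camk2a* assay effect of -0.11 was not called. *Gad2*, *Adarb2* and *Pvalb* were not called.

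Of 14 measured astrocyte genes, 12 were below 0 and 1 above, and of these 13 calls 7 had opposite changes, 3 came from Rosa alone and 3 from changes in 1 direction in both lines. The medians were -1.18 for the interaction, -0.85 for the *Camk2a* assay effect and 0.54 for the Rosa assay effect. *Aqp4*, the water channel of astrocyte endfeet, had 13.5, 11.5 and 12.4 CPM in Rosa single ChIP, 19.3, 23.3 and 21.0 CPM in Rosa tChIP, 12.8, 13.4 and 12.5 CPM in *Camk2a* single ChIP and 3.94, 2.53 and 2.95 CPM in *Camk2a* tChIP. The *Camk2a* tChIP group was the lowest and the Rosa tChIP group the highest, and the interaction was -2.78 (SE 0.32, adjusted p = 2.7e-15). *Gja1*, the gap junction protein connexin 43, had -2.34 (adjusted p = 1.6e-41), and *Fgfr3*, a fibroblast growth factor receptor, had -1.77 (adjusted p = 9.41e-38) with nearly equal parts of -0.87 and 0.90. The exception above 0 was *Slc1a2*, the glutamate transporter GLT-1, with 0.34 (adjusted p = 0.000216), where both lines fell. At *Slc4a4*, a bicarbonate cotransporter, both lines rose, by 0.21 in *Camk2a* and 0.50 in Rosa, and its interaction of -0.29 (adjusted p = 0.00935) lost its call in 10 of the alternatives, among them DESeq2 and leaving out 9 of the 12 libraries one at a time, with adjusted p up to 0.0429.

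Of 12 measured oligodendrocyte lineage genes, 9 were below 0 and 1 above, and 7 of the 10 came from *Camk2a* alone. The medians were -1.34 for the interaction, -1.55 for the *Camk2a* assay effect and -0.24 for the Rosa assay effect, and the median Rosa effect, above 0 for astrocytes, was below 0 here. *Olig2*, a lineage-determining factor, had 75.0, 79.3 and 82.3 CPM in Rosa single ChIP, 77.2, 65.0 and 81.4 CPM in Rosa tChIP, 71.9, 59.9 and 68.5 CPM in *Camk2a* single ChIP and 14.1, 10.8 and 14.7 CPM in *Camk2a* tChIP. The 3 *Camk2a* tChIP libraries lay far below the others, among which the groups overlapped or lay near each other, and the interaction was -2.25 (SE 0.16, adjusted p = 1.22e-32). *Nkx2-2*, another factor of the lineage, had -2.68 (adjusted p = 1.57e-17) with -0.05 in Rosa. *Mbp*, whose gene encodes myelin basic protein and also the golli proteins found in neurons, was the gene above 0, with 1.11 (adjusted p = 1.71e-17), a rise of 0.65 in *Camk2a* and an effect of -0.46 in Rosa. *Ugt8a* and *Pdgfra* were not called.

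Of 14 measured endothelial genes, 13 were below 0, with 8 from *Camk2a* alone and 5 two-sided, and the medians were -2.05 for the interaction, -1.96 for the *Camk2a* assay effect and 0.25 for the Rosa assay effect. *Cdh5*, the cadherin of endothelial junctions, had 22.2, 23.0 and 21.1 CPM in Rosa single ChIP, 32.4, 38.8 and 32.8 CPM in Rosa tChIP, 24.4, 22.9 and 24.4 CPM in *Camk2a* single ChIP and 4.26, 5.05 and 3.32 CPM in *Camk2a* tChIP. *Camk2a* tChIP was the lowest group and Rosa tChIP the highest, and the interaction was -3.13 (SE 0.25, adjusted p = 1.91e-26). *Erg*, a transcription factor of the endothelium, had -2.74 (adjusted p = 4.5e-29) from *Camk2a* alone. *Ocln*, a protein of tight junctions, was not called, with 0.11 (adjusted p = 0.447). Of 7 measured mural and meningeal genes, 5 were below 0, and here the Rosa side was the larger at the median, with -1.85 for the interaction, -0.52 for the *Camk2a* assay effect and 1.33 for the Rosa assay effect. *Pdgfrb*, the pericyte receptor for platelet-derived growth factor, had 42.3, 41.3 and 39.4 CPM in Rosa single ChIP, 83.0, 71.6 and 91.9 CPM in Rosa tChIP, 47.8, 35.1 and 42.9 CPM in *Camk2a* single ChIP and 14.1, 10.1 and 14.0 CPM in *Camk2a* tChIP. The tChIP groups were again at the 2 ends, with -1.71 in *Camk2a*, a smaller rise in Rosa of 0.99 and an interaction of -2.70 (SE 0.17, adjusted p = 3.91e-39). *Notch3*, a receptor of vascular smooth muscle, came from Rosa alone, with 1.69 against -0.15 in *Camk2a*.

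**Figure D4:**
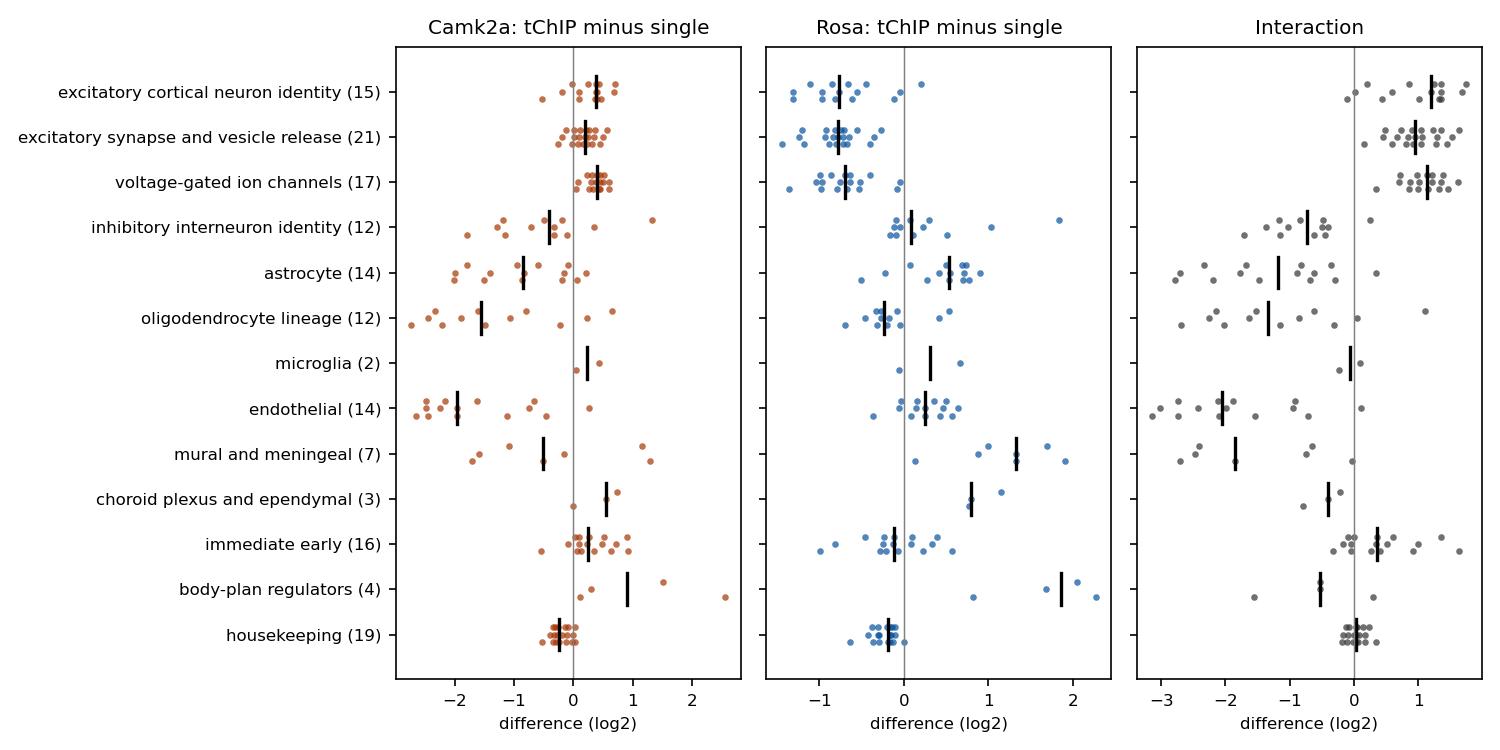
Each point is the TSS region of 1 gene, in rows for the gene lists with the number measured in brackets; the horizontal axes give the Camk2a assay effect, the Rosa assay effect and the interaction (log2), and black bars are medians. The 3 lists of excitatory neurons, synapse and channels have medians right of 0 in the first panel and left of 0 in the second, with interaction medians of 0.95 to 1.20, whereas the endothelial list has medians of -1.96, 0.25 and -2.05.

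Only 2 of 17 microglial genes had a region containing their start, and neither was called by edgeR, nor passed an unadjusted p of 0.05 or DESeq2. For all lists, genes without such a region were therefore also taken at a region within 1000 bp of their start, a choice made after seeing the data. This added 5 microglial genes, of which 3 were below 0. *Csf1r*, the receptor for colony-stimulating factor 1, had 8.26, 9.93 and 6.22 CPM in Rosa single ChIP, 4.17, 5.37 and 5.90 CPM in Rosa tChIP, 9.35, 8.59 and 6.73 CPM in *Camk2a* single ChIP and 1.64, 1.80 and 1.47 CPM in *Camk2a* tChIP. The *Camk2a* tChIP libraries were the lowest, Rosa tChIP lay between them and Rosa single ChIP, and the interaction was -1.60 (SE 0.50, adjusted p = 0.00599). *Tmem119* and *C1qc*, also microglial, had -1.85 (adjusted p = 0.000187) and -1.82 (adjusted p = 0.00266), and *C1qa* and *Trem2*, with few counts, were not called. The same choice added *Sox10*, of oligodendrocytes, with -1.52 (adjusted p = 6.3e-13), *Gfap*, of astrocytes, with -2.63 (adjusted p = 1.02e-09), and *Cldn5*, of endothelial tight junctions, with -2.07 (adjusted p = 3.61e-29). *Vtn*, added to the mural list at a region that also holds the start of *Sarm1*, was above 0 with 0.44.

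Immediate early genes are transcribed by neurons soon after activity. Of 16, 10 were above 0 and 1 below, with medians of 0.35 for the interaction, 0.25 for the *Camk2a* assay effect and -0.12 for the Rosa assay effect. *Npas4*, a neuron-specific activity-dependent factor, had 132, 112 and 121 CPM in Rosa single ChIP, 60.0, 59.0 and 64.3 CPM in Rosa tChIP, 121, 124 and 132 CPM in *Camk2a* single ChIP and 207, 184 and 193 CPM in *Camk2a* tChIP, with the tChIP groups at the 2 ends and an interaction of 1.62 (SE 0.10, adjusted p = 3.18e-41). *Egr4* had 1.36 (adjusted p = 1.8e-28). *Fos*, *Fosb*, *Fosl2*, *Nr4a2* and *Ier2* were not called, and *Fos* and *Fosb* rose in both lines, by 0.35 in *Camk2a* and 0.39 in Rosa at *Fos*. *Dusp1*, a phosphatase, was the gene below 0, with -0.33. Of 19 housekeeping genes, edgeR called 0, with 2 at an unadjusted p under 0.05 and 0 by DESeq2, and their interactions ranged from -0.18 to 0.34 with a median of 0.03. Of 4 measured body-plan regulators, 1 was below 0. *Isl1*, *Lhx3* and *Hoxa7* were not called, and *Isl1* and *Lhx3* rose in both lines. Of 3 measured choroid plexus and ependymal genes, *Foxj1*, a factor of ciliated cells, was below 0 with -0.80 (adjusted p = 0.00235), a call lost under DESeq2 and without replicate 1 of *Camk2a* tChIP or replicate 2 of Rosa tChIP, with adjusted p up to 0.0318.

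Some regions rose strongly in tChIP in both lines. The largest such rises without a called interaction were at *Foxi3*, *Ihh*, *Lhx3* and *Onecut3*, developmental regulators with little signal in single ChIP. *Foxi3*, a forkhead factor, had 1.16, 1.68 and 1.80 CPM in Rosa single ChIP, 12.0, 8.95 and 13.8 CPM in Rosa tChIP, 1.48, 2.39 and 2.74 CPM in *Camk2a* single ChIP and 11.8, 22.7 and 14.4 CPM in *Camk2a* tChIP. Both tChIP groups lay above both single ChIP groups, and the assay effects of 2.86 in *Camk2a* and 2.88 in Rosa left an interaction of -0.02 (adjusted p = 0.977). *Ihh*, a hedgehog ligand, had 2.53 and 2.78 and an interaction of -0.24 (adjusted p = 0.722).

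The interaction also subtracts a line difference already present in single ChIP, as at *Camk2a* on chromosome 18. Within 500 kb of its start, 3 of 15 TSS regions differed between the lines in single ChIP, namely *Arsi*, *Camk2a* and *Slc6a7*. *Arsi*, an arylsulfatase gene 13.6 kb upstream, had 5.50, 7.06 and 6.38 CPM in Rosa single ChIP, 14.1, 13.7 and 14.4 CPM in Rosa tChIP, 23.1, 23.9 and 26.4 CPM in *Camk2a* single ChIP and 37.7, 39.3 and 42.0 CPM in *Camk2a* tChIP. Both *Camk2a* groups lay above both Rosa groups, so that the line difference was 1.49 in tChIP and 1.94 in single ChIP and the interaction was not called, -0.45 (adjusted p = 0.151). *Camk2a* itself had 175, 171 and 175 CPM in Rosa single ChIP, 74.1, 69.8 and 66.3 CPM in Rosa tChIP, 262, 249 and 238 CPM in *Camk2a* single ChIP and 323, 346 and 348 CPM in *Camk2a* tChIP. All 4 groups were separated there, and removing the single ChIP difference of 0.52 took the tChIP difference of 2.27 to an interaction of 1.74 (SE 0.08, adjusted p = 1.33e-56). *Slc6a7*, a proline transporter 87.4 kb downstream, went from 1.91 to 1.21 (SE 0.13, adjusted p = 6.45e-17) in the same way. *Pdgfrb*, at 121 kb, had 0.03 in single ChIP, which was not called, and -2.68 in tChIP.

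**Figure D5:**
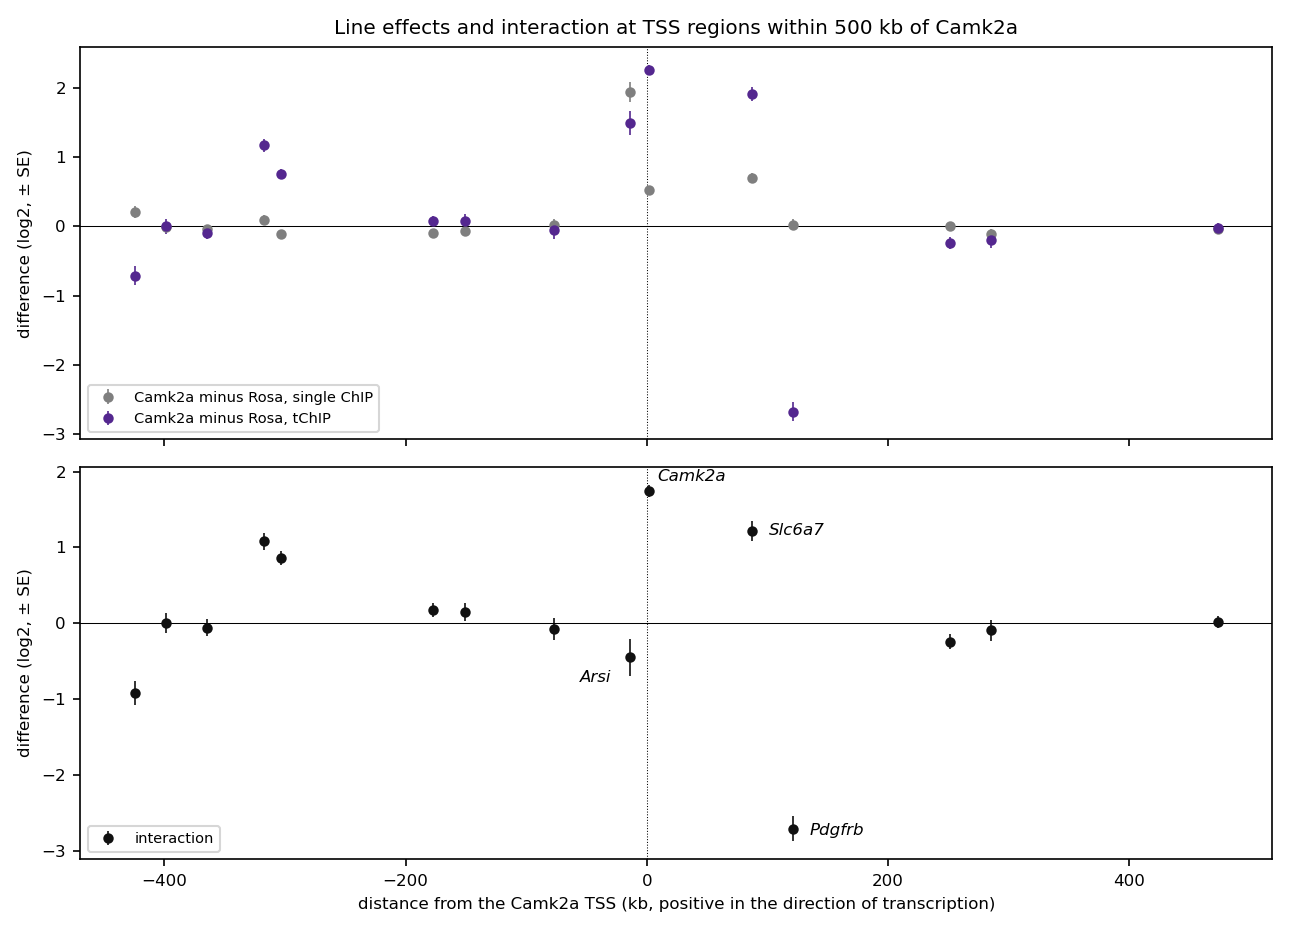
Differences on the log2 scale (± SE) at the 15 TSS regions within 500 kb of Camk2a against distance from its start (kb), with the Camk2a minus Rosa difference in single ChIP and in tChIP above and the interaction below. Single ChIP stands away from 0 at Arsi (1.94), Camk2a (0.52) and Slc6a7 (0.70), and the interaction is -0.45, 1.74 and 1.21 there.

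At the knock-in locus, the start of *Gt(ROSA)26Sor*, the *Rosa26* transcript, lies in 1 region with that of *Setd5*. Its interaction was 0.12 (adjusted p = 0.154), and its single ChIP difference of 0.15 was called (adjusted p = 0.00401). Among TSS regions with a called single ChIP difference, *Speer7-ps1*, *Aox1*, *AY036118* and *Sfi1* had the largest interactions. At *Sfi1*, 38.7, 26.6 and 31.9 CPM in Rosa single ChIP rose to 495, 428 and 539 CPM in Rosa tChIP, against 112, 115 and 147 and 262, 241 and 276 CPM in the *Camk2a* groups. All 4 groups were separated, both lines rose, and the interaction was -2.86 (SE 0.09, adjusted p = 1.7e-94). *AY036118* and *Speer7-ps1* had -2.89 and -3.93, with Rosa single ChIP again the lowest group. *Sfi1* and the Speer genes have near-identical copies in the mouse genome, among which reads can be split, so that these values are uncertain. *AY036118* is annotated as a pseudogene and also rose in both lines, and whether its reads are split in this way was not tested. At *Aox1*, an aldehyde oxidase, the interaction of -3.14 was two-sided and the single ChIP difference was 0.66.

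Region width and count moved with the interaction. In the 3350 widest TSS regions (2810 to 8561 bp), 38.8% were above and 11.1% below 0 and the median interaction was 0.17. In the 3356 narrowest (82 to 1528 bp), 3.81% were above and 20.7% below, the median was -0.17, and the median Rosa assay effect was 0.33 against 0.05 in *Camk2a*. The median of the mean counts per region was 469 in the widest and 72.3 in the narrowest. The part of width and depth in the results above was not tested.

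The mitochondrial genome gave 2 regions, which were set aside from the lists of named regions. The region that holds the starts of *mt-Co1*, *mt-Nd1* and *mt-Nd2* had 252, 159 and 194 CPM in Rosa single ChIP, 283, 213 and 238 CPM in Rosa tChIP, 466, 439 and 387 CPM in *Camk2a* single ChIP and 87.9, 94.5 and 68.5 CPM in *Camk2a* tChIP. *Camk2a* single ChIP was the highest group and *Camk2a* tChIP the lowest, and the interaction was -2.67 (SE 0.10, adjusted p = 2.42e-79) with a single ChIP difference of 1.11. The other region had -2.75. Mitochondrial DNA is not packed by histones, and the source of these counts was not tested.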

How the data were processed

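Counts of H3K4me3 reads in 17993 regions, 1 whole number per region and library, were used as deposited. Per the published methods, the authors depleted repeat sequences (Bowtie2), aligned the remaining reads to mm9 (Bowtie), suppressed duplicates (SAMtools), kept MACS peaks that recurred in triplicates, and counted reads per peak (bedtools). Versions in the submitters' processing notes are bcl2fastq 1.8.4, Bowtie2 2.1.0, Bowtie 1.0.0, SAMtools 0.1.19 and bedtools 2.17.0. The study compared the lines at peaks called in the tChIP of both. The input and FLAG libraries were not analysed here.

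Groups came from the GEO labels. A quasi-likelihood model with 4 groups was fitted to all 12 libraries and 17993 regions without a filter (edgeR 4.0.16, R 4.3.3), after TMM normalisation. The interaction and the simple effects were contrasts of this fit, adjusted by Benjamini-Hochberg over all regions and called under 0.01, and SEs were derived from the F statistic. Tests were two-sided. TSSs came from GENCODE M1 on mm9. Sequences were read from the mm9 reference genome. Alternatives were library totals, DESeq2 size factors, the DESeq2 1.42.0 Wald test, the newer quasi-likelihood form, a mean count of 20, a threshold of 0.05, a replicate block, leaving out each library and others of the closing section.

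Named regions were the 15 with the largest interaction in each direction among called TSS regions on chromosomes 1 to 19 or X with a mean count of 20 or more and all 9 tChIP minus single differences (log2 of CPM plus 0.5) of 1 line above all 9 of the other. They also were the 2 largest and the smallest of each gene list, and in groups of 4 those with a called single ChIP difference, those with a tChIP line difference but no called interaction and those with the largest shared assay effect but no called interaction, besides the neighbours of *Camk2a* and *Rosa26* within 500 kb. Some regions that this rule names are not reported here. Other list members named with their values were chosen after the values were seen. The members, lists and tests were chosen with earlier results of these data known. Each library was counted as 1 replicate. Every pair of libraries in a group differed by slightly more than sampling noise, with a chi-square per degree of freedom from 1.03 to 1.09. This cannot show that the libraries came from independent animals, and the p-values rest on this small spread. The precision from counting is limited by 1457261 counts in the shallowest library.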

Additional observations from a re-analysis of the deposited data

Results flagged for a closer look

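The effect of tChIP against single ChIP differed between the 2 mouse lines, as tested by the interaction term of edgeR over all 12 libraries. At an adjusted p under 0.01, this effect was higher in *Camk2a* than in Rosa at 2177 TSS regions and lower in *Camk2a* than in Rosa at 1778. Tamoxifen, the CreERT2 transgene and the depth of the libraries also differ between the lines, and their part in these counts was not tested.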

How the results depend on the processing

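Without any 1 of the 12 libraries, edgeR called 1924 to 2121 TSS regions above 0 and 1613 to 1718 below 0. The Wald test of DESeq2 gave 1887 and 1488, all of them also called by edgeR. The count of regions above 0 with a fall in Rosa alone was 323 when scaled by library totals, and that with opposite changes above 0 was 201 when assay effects counted from a size of 0.5. The count of called regions with a single ChIP line difference depended on the setting, with 20 under DESeq2, 360 at a threshold of 0.05 and 35 to 102 without 1 library, of which each *Camk2a* single ChIP library and replicates 2 and 3 of Rosa single ChIP moved it by over 1.5 times (35 to 54). With members taken within 1000 bp of a region, chosen after seeing the data, the microglial list had 3 below 0 and the mural list 1 above 0. The choroid plexus list had 0 below 0 under DESeq2 and 0 to 1 without 1 library. Other list counts moved by at most 1.5 times under the alternatives run. Of 1461 repeats over 77 named regions, 1440 stayed on their side of the threshold, 13 lost a call at 2 regions, *Foxj1* and *Slc4a4*, 8 gained 1, and no called region changed sign.

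The labels give single ChIP and tChIP libraries of a line the same replicate numbers, without saying what they share. The deviations of same-numbered single ChIP and tChIP libraries correlated between -0.00972 and 0.0291, and those of different numbers between -0.0261 and 0.0271. Since libraries of a group differed by little more than sampling noise, these correlations cannot settle whether the numbers are pairs. In the main fit the numbers were not taken as pairs. With a replicate block, 2180 TSS regions were above and 1799 below 0. At these depths, small interactions in regions with few counts could not be resolved, and Rosa tChIP had the fewest counts.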

Other observations

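Of 4589 regions without an annotated TSS, 289 were above 0 and 597 below. Among the 13404 TSS regions these were 2177 (16.2%) and 1778 (13.3%). The share above 0 was thus lower without a TSS, and the share below 0 was close to that of TSS regions. The Y-linked regions of *Eif2s3y*, *Uty* and *Ddx3y* had interactions of 0.20, -0.07 and -0.25, none called, and fell in tChIP in both lines. In single ChIP they had means of 24.3, 40.4 and 38.2 CPM in Rosa and 20.6, 38.6 and 40.2 CPM in *Camk2a*, whose mice were male. None of these line differences in single ChIP was called.

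Most TSS regions within 500 kb of *Rosa26* were not called. All those called are named here and lay in both directions (distances in kb from the *Rosa26* start, negative upstream). *Prrt3*, a proline-rich transmembrane protein at -424, and *Cpne9*, a copine at -206, were above 0 with 1.46 (adjusted p = 5.23e-20) and 1.30 (adjusted p = 5.09e-11). *Il17rc*, an interleukin 17 receptor subunit at -394, and *Ttll3*, a tubulin glycylase at -315, were below 0 with -3.30 (adjusted p = 8.1e-12) and -1.54 (adjusted p = 5.69e-07). The mean count of *Il17rc* was 19.6, under the minimum of 20 used for the regions furthest from 0. The nearer *Lhfpl4* (-118) and *Srgap3* (132) were above 0 with 0.70 (adjusted p = 2.92e-11) and 0.28 (adjusted p = 0.00387). None of these regions had a called single ChIP difference. Over all TSS regions, 16.2% were called above 0 and 13.3% below, and a part of the knock-in was not tested. Of the 4 regions with the largest tChIP line difference but no called interaction, *D030055H07Rik*, *Pnma3* and *Atp12a* had interactions of -0.88 (adjusted p = 0.0314), 0.97 (adjusted p = 0.0113) and 0.95 (adjusted p = 0.0186), each of which passed a threshold of 0.05.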
